A study of Homo sapiens with 11 samples.

Results

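The genes for the interferon receptors and the kinases and factors that carry their signal, IFNAR1, IFNAR2, IFNGR1, IFNGR2, IFNLR1, JAK1, TYK2, STAT2 and IRF9, were examined in nickel-treated human epithelial cells. They were chosen by symbol, and all 9 were found among the 28252 genes of the RT4 RNA-Seq tables and among the 26237 promoters of the BEAS-2B H3K4me3 tables. RT4 is a human bladder cancer line, and BEAS-2B is a line of immortalized human lung epithelial cells that does not form tumours. Untreated cells (UT) were compared with nickel-exposed cells (Ni-E), which had 100 μM NiCl2 in the medium for 6 weeks, and with nickel-washed-out cells (Ni-W), which were exposed in the same way and then grown without nickel. RT4 Ni-W cells had 2 weeks without nickel. BEAS-2B Ni-W cells were a population expanded from a single colony and kept without nickel for over 6 months, although the protocol text also states 2 weeks for both lines. RT4 had 2 libraries per condition, of which 1 in each condition is titled as a duplicate (replicate 2 here), and BEAS-2B had 1 ChIP library per condition. The methods give 2 biological replicates for RNA-Seq, without naming the line, while the labels do not say that the RT4 duplicates came from separate cultures, so p-values measure the spread between these libraries, which may be partly technical.

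Interferons reach the cell through 3 receptor types. Type I interferons bind a receptor made of the chains IFNAR1 and IFNAR2, interferon gamma binds IFNGR1 with IFNGR2, and lambda interferons bind IFNLR1 with IL10RB, a chain shared with the interleukin-10 family. JAK1 and TYK2 are kinases held at the type I and lambda receptors, while the gamma receptor uses JAK1 and JAK2. The type I and lambda receptors lead to ISGF3, a complex that holds STAT2 and the DNA-binding factor IRF9 and binds the ISRE element of antiviral genes, whereas genes induced by interferon gamma are mainly reached through the GAS element. Epithelial cells are a main site of the lambda receptor.

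On GRCh38, the build of the ChIP-Seq data, IFNAR2, IL10RB, IFNAR1 and IFNGR2 follow each other on the plus strand of chromosome 21, from 33205282 to 33479348, a span of 274.1 kb (GENCODE 44). The other genes lie apart. IRF9 spans chr14:24161234-24168043 on the plus strand, STAT2 chr12:56341597-56360203, TYK2 chr19:10350533-10380608, IFNGR1 chr6:137197483-137219449, IFNLR1 chr1:24154168-24187959 and JAK1 chr1:64833223-65067754, the last 5 all on the minus strand. Of the 9 start sites, STAT2 alone had the start of another coding gene within 4 kb, that of APOF at 2654 bases, so that the H3K4me3 windows of these 2 genes overlap. Starts of noncoding genes lay 485 bases from that of IFNAR1, 760 from IFNGR2 and 54 from JAK1, inside the windows of these genes.

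Promoter sequences from RefSeq (GRCh38.p14, 250 bases before to 50 bases after the RefSeq start, which can differ from the GENCODE start) were found for 8 of the 9 genes, and IFNAR2 is named only. IRF9 and STAT2 are printed because their RNA passed the test in the fit with a replicate block given further on, a choice made after their values were seen. TYK2, IFNGR2 and IFNGR1 are printed because they had the 3 lowest H3K4me3 scores in BEAS-2B Ni-W vs UT cells, followed by IFNAR2. The windows are chr14:24161015-24161314 for IRF9 and chr21:33403163-33403462 for IFNGR2 on the plus strand, and chr12:56360058-56360357 for STAT2, chr19:10380523-10380822 for TYK2 and chr6:137219147-137219446 for IFNGR1 on the minus strand, all written 5′ to 3′ along the gene. Capitals mark matches to the motifs searched on both strands: the ISRE core GAAANNGAAA, the GAS core TTCNNNGAA and the core of the hypoxia response element ACGTG, where N is any base.
IRF9: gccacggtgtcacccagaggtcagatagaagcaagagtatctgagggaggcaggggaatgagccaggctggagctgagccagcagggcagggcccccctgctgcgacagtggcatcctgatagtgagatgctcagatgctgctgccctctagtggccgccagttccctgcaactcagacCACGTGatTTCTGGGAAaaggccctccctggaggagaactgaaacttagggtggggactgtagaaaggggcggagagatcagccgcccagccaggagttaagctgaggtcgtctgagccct
STAT2: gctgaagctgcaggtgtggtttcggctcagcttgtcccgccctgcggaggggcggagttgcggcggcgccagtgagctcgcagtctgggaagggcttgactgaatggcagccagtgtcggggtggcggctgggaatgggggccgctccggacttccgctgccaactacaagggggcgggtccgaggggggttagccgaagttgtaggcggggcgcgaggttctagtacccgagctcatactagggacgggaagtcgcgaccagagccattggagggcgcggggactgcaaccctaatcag
TYK2: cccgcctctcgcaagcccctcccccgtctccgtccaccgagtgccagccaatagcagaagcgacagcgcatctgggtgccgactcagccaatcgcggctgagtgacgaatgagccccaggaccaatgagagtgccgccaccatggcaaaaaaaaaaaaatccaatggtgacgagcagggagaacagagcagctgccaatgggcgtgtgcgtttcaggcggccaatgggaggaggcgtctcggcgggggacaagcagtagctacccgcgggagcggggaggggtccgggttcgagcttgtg
IFNGR2: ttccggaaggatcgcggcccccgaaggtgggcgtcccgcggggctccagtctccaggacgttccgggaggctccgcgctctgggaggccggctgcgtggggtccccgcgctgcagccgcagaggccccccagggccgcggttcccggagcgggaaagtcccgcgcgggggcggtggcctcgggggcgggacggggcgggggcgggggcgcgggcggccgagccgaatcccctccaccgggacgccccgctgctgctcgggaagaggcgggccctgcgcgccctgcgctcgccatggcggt
IFNGR1: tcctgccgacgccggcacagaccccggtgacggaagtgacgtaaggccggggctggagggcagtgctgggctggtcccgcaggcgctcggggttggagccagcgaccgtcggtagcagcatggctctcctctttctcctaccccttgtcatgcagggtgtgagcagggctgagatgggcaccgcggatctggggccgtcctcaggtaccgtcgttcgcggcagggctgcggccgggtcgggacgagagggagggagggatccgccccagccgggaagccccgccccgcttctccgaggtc

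The IRF9 window held a GAS core, TTCTGGGAA, starting 63 bases before the RefSeq start. Directly upstream of it lay the palindrome CACGTG, which holds the hypoxia element core on each strand, at 71 and 70 bases before the start. No match to the 3 motifs was found in the other 4 windows printed. Of these, the IFNGR1 window lay wholly downstream of the GENCODE start at 137219449, so no bases before that start were searched. The IFNLR1 window, which is not printed, also lay wholly downstream of its GENCODE start, at 24187959. Among all 8 windows, GAS cores were found in IRF9 and IFNLR1, hypoxia cores in IRF9 and JAK1, and an ISRE core in 0. Over all 35116 RefSeq promoters of this length, 3.57% held the ISRE core, 7.66% the GAS core and 21.4% the hypoxia core. A match is a description of the letters, and the absence of a match says only that these letters are not in this window. The IRF9 window had a GC content of 60.0% with 7 CpG, the lowest number of CpG among the 8 windows, against 80.0% with 44 CpG in IFNGR2.

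The RT4 libraries held 17075838 to 27736464 estimated reads in genes after rounding, fewer in the replicate 1 libraries than in the replicate 2 libraries of all 3 conditions. Of 15 urothelial and epithelial markers, 14 were above 1 TPM (the deposited expression level, scaled by transcript length and library total) in all 6 libraries. Some of them were lower after nickel: 2 of 15 were called lower in Ni-E vs UT and 1 in Ni-W vs UT. In the fit with a replicate block 5 and 2 were called lower (the rule for a call and both fits are given further on). Of all genes tested, 0.71% and 0.0965% were called lower without the block, and 5% and 2.78% with it. The fold change was positive in 5 of the 15 markers in each of these comparisons. KRT20, a keratin of umbrella cells, had 11.1 and 11.3 TPM in UT, 0.25 and 0.11 TPM in Ni-E and 1.59 and 1.37 TPM in Ni-W cells (edgeR adjusted p = 0.0085 and 0.0294 against UT). UPK1A, a uroplakin of the same cells, had 70.6 and 92.5 TPM in UT and 16.1 and 18.5 TPM in Ni-E cells (edgeR adjusted p = 0.0376), and UPK2, UPK1B and UPK3A were called lower in Ni-E vs UT with the block alone. In Ni-W vs UT their log2 fold changes were -0.36 ± 0.42, -0.01 ± 0.15 and 0.41 ± 0.34. UPK3B went the other way, from 293 and 313 TPM in UT to 391 and 406 TPM in Ni-E cells (edgeR adjusted p = 0.592, and 0.0171 with the block, below 1.5-fold). The counts without the block fell to 0 without either Ni-E library and 1 without either UT library in Ni-E vs UT, and to 0 without any 1 library in Ni-W vs UT. The summed TPM of 8 fibroblast markers was 1.09 to 1.75 in UT, 3.05 to 4.77 in Ni-E and 2.35 to 5.21 in Ni-W cells, with COL1A2, DCN and THY1 at 0 in all 6 libraries. Of these, COL3A1, a fibrillar collagen, had 0.84 and 0.26 TPM in UT, 4.13 and 2.18 TPM in Ni-E and 4.55 and 1.48 TPM in Ni-W cells (edgeR adjusted p = 0.147 and 0.25 against UT, and 3.56e-05 and 0.000115 with the block). COL1A1, the only other fibroblast marker that was tested, had negative log2 fold changes, of -0.28 ± 0.44 and -0.27 ± 0.44 (edgeR adjusted p = 0.991 and 0.999). The summed TPM of 9 leukocyte and endothelial markers was 12.05 to 14.9 in UT, 16.41 to 20.28 in Ni-E and 22.2 to 25.09 in Ni-W cells. The T cell marker CD3E was at 0 in all 6 libraries, the pan-leukocyte marker PTPRC was at most 0.04 TPM, and most of the sum was CD68, at 7.30 to 13.4 TPM, and ITGAM, at 3.71 to 9.77 TPM. The part of these markers in the results was not tested. As a sign of nickel exposure, 4 of 8 fixed HIF and nickel response genes were called higher in Ni-E vs UT, beside 1.45% of all genes tested. With the block 8 of 8 were called higher, beside 7.64%. Without it, ADM, a hypoxia-induced peptide hormone, was among those called, with a log2 fold change of 2.30 ± 0.29 (SE; edgeR adjusted p = 0.0266). The count of 4 fell to 0 without any of the UT or Ni-E libraries.

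In untreated RT4 cells all 9 genes were above 1 TPM in each library. The order of the mean levels ran from the gamma receptor chains through the kinases and ISGF3 subunits to the type I chains, with the lambda receptor last. IFNGR2 had 93.8 ± 4.76 TPM (SD, n = 2 here and below), IFNGR1 59.7 ± 5.56, TYK2 52.3 ± 5.93, JAK1 48.9 ± 25.8 and STAT2 33.2 ± 7.07. IRF9 followed at 30.1 ± 7.00 TPM, IFNAR2 at 15.7 ± 2.02, IFNAR1 at 13.025 ± 2.91 and IFNLR1 at 3.88 ± 0.905. Neighbours in this order overlapped between libraries from IFNGR1 through IRF9 and for IFNAR2 with IFNAR1, whereas IFNGR2 stood above IFNGR1, IRF9 above IFNAR2 and IFNAR1 above IFNLR1 without overlap. In Ni-E cells IRF9, at 95.2 ± 7.63 TPM, overlapped IFNGR2, at 93.1 ± 3.54 TPM, at the top of the order. In Ni-W cells IRF9 was first, at 171 ± 19.5 TPM, above IFNGR2 at 108 ± 4.66 TPM without overlap. Among genes with at least 1 TPM, the mean level of IRF9 exceeded 65.4% of genes in UT, 87.7% in Ni-E and 93.1% in Ni-W cells. IFNLR1 stayed lowest in all 3 conditions and exceeded 17.3%, 11.9% and 14% of these genes.

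**Figure D1:**
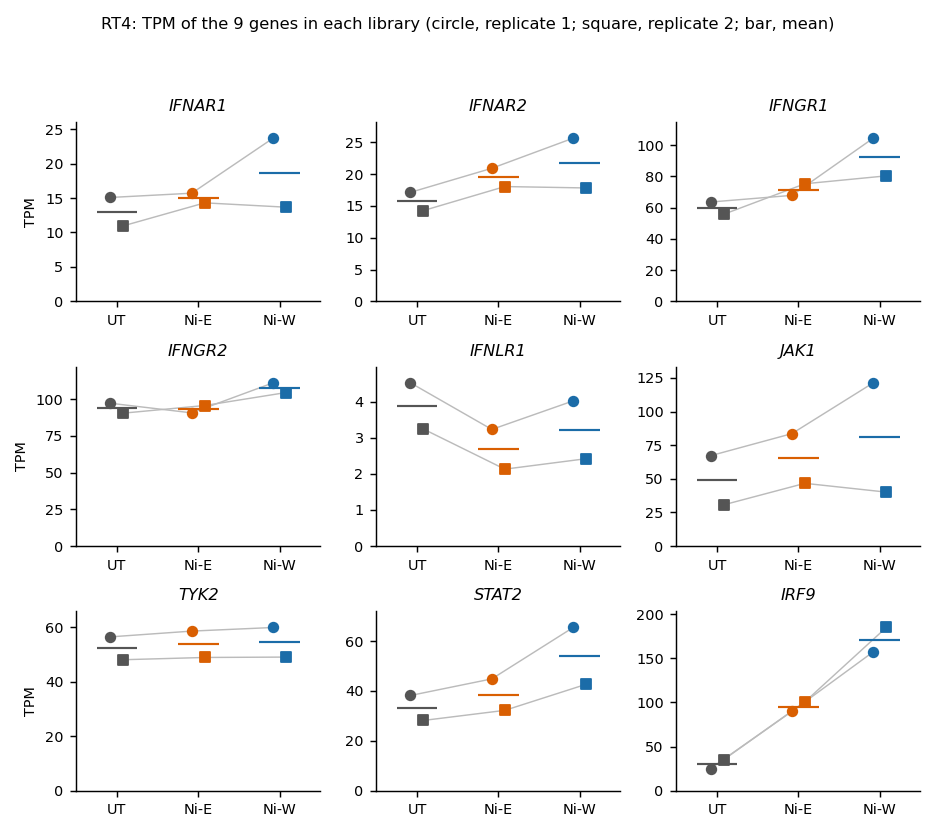
TPM of each gene in the 6 RT4 libraries, by condition (circles, replicate 1; squares, replicate 2; grey lines join libraries of the same replicate number; bars, means of 2). IRF9 stands at 25.2 and 35.1 TPM in UT cells and at 157 and 185 TPM in Ni-W cells, while TYK2 stays between 48.1 and 59.9 TPM in all 6 libraries.

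For 6 of the 9 genes the difference between the 2 replicate series had the same sign in all 3 conditions, while for IFNAR1, IFNAR2 and TYK2 its sign changed. For JAK1, replicate 1 was above replicate 2 by 0.88, 0.70 and 1.23 on the log2 scale in untreated, exposed and washed-out cells, and for IRF9 replicate 1 was below replicate 2 by a log2 ratio of -0.75, -0.33 and -0.62. Each comparison was therefore fitted without a block for the replicate number, as the main test, and with it. In both fits a gene was called at a fold change of at least 1.5 and a Benjamini-Hochberg adjusted p below 0.05 over the 14502 genes tested with edgeR's quasi-likelihood test.

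Without the block, 0 of the 9 genes were called in any of the 3 comparisons by edgeR. At an unadjusted p below 0.05 there were 1 of 9 genes in Ni-E vs UT (IRF9), 3 in Ni-W vs UT (IFNGR1, STAT2 and IRF9) and 0 in Ni-W vs Ni-E, beside 12.2%, 9.12% and 5.57% of all genes tested, so that the share in Ni-E vs UT was near that of all genes. DESeq2, another count test, called IRF9 in Ni-E vs UT and in Ni-W vs UT and 0 genes in Ni-W vs Ni-E, as did limma on log2(TPM + 1). Of all genes tested, edgeR without the block called 1.45% higher and 0.71% lower in Ni-E vs UT, 0.503% higher and 0.0965% lower in Ni-W vs UT, and 0% in either direction in Ni-W vs Ni-E, where 808 genes had an unadjusted p below 0.05. With the block, IRF9 was called higher in all 3 comparisons and STAT2 in Ni-W vs UT, and 0 of the 9 genes were called lower. The blocked fit called 7.64% of all genes higher and 5% lower in Ni-E vs UT, 5.79% and 2.78% in Ni-W vs UT, and 2.72% and 1.8% in Ni-W vs Ni-E.

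**Figure D2:**
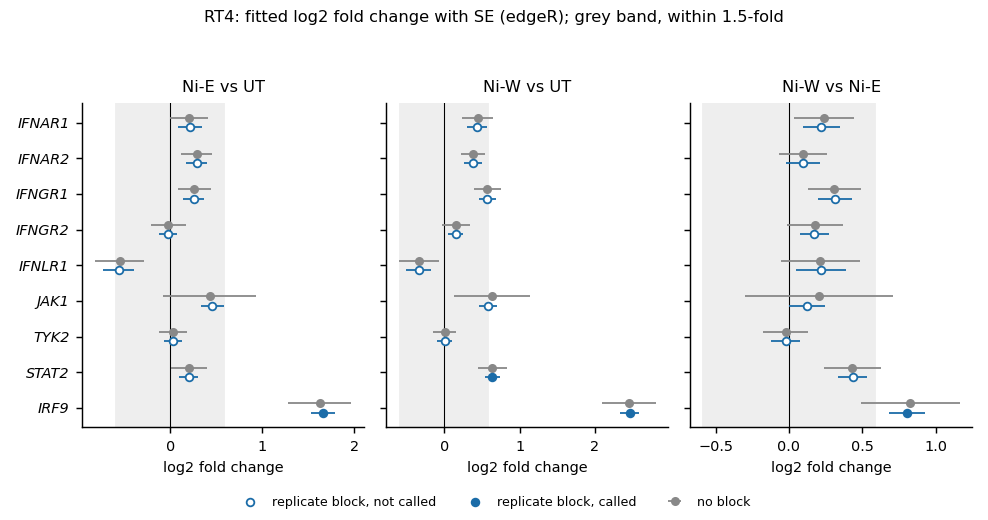
Fitted log2 fold changes of the 9 genes with their SE in the 3 RT4 comparisons, without a block (grey) and with the replicate block (blue, filled where called); the grey band marks changes within 1.5-fold. IRF9 lies outside the band in all 3 panels, and the SE of JAK1 shrinks from 0.51 to 0.12 in Ni-E vs UT when the block is included.

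IRF9, the subunit that gives ISGF3 its DNA sequence preference, changed most. Its level was 25.2 and 35.1 TPM in the UT libraries, 89.8 and 101 TPM in Ni-E and 157 and 185 TPM in Ni-W (replicates 1 and 2). The 3 conditions did not overlap, and each replicate series ran upwards from UT through Ni-E to Ni-W. The log2 fold change was 1.62 ± 0.34 (SE) in Ni-E vs UT, with an edgeR adjusted p of 0.0939 without the block and 1.24e-05 with it. In Ni-W vs UT it was 2.45 ± 0.35, or 5.47-fold, with an edgeR adjusted p of 0.0604 without the block and 1.78e-06 with it. Ni-W cells were also above Ni-E cells, by 0.83 ± 0.34 on the log2 scale (edgeR adjusted p = 0.895, and 0.00367 with the block). Within replicate 1 the log2 ratios to UT were 1.87 in Ni-E and 2.53 in Ni-W, and within replicate 2 they were 1.45 and 2.40.

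STAT2, the ISGF3 subunit that carries the transactivation domain and docks at the type I receptor, had 38.2 and 28.2 TPM in UT, 44.8 and 32.2 TPM in Ni-E and 65.4 and 42.7 TPM in Ni-W cells. Ni-W cells were above UT cells in both libraries, while Ni-E and UT cells overlapped. In Ni-W vs UT the log2 fold change was 0.64 ± 0.19 (edgeR adjusted p = 0.329, and 0.00228 with the block), or 1.56-fold, so that STAT2 rose in the blocked fit with a size near the 1.5-fold limit. In Ni-E vs UT it was 0.21 ± 0.19 (edgeR adjusted p = 0.898, and 0.212 with the block). Between Ni-W and Ni-E the blocked adjusted p of edgeR was 0.032, but the change, 0.43 on the log2 scale, was below 1.5-fold. IRF9 and STAT2 thus differed in size: the largest of the STAT2 within-replicate log2 ratios to UT, 0.66, was below the smallest of those of IRF9, 1.45.

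Across the 6 libraries, the log2 CPM (counts scaled to library size) of STAT2 and IRF9 correlated with Pearson's r = 0.702, given as a description over libraries that share conditions and replicate series. The 5 genes whose log2 CPM over the 6 libraries was most like that of IRF9 among 11140 genes compared were IL4I1, OASL, IL32, NEURL3 and XAF1, with r from 0.9941 to 0.9974. OASL and XAF1 belong to the fixed list of ISGF3 targets below, and their log2 fold changes in Ni-W vs UT were 3.18 and 3.61. Those most like STAT2 were PSD4, FLII, KIF1C, SMAD7 and ACKR3, with r from 0.9848 to 0.9915 and none in the list.

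The type I receptor chains were modestly higher in nickel-treated cells in values that did not pass the test. IFNAR1, the chain that holds TYK2, had 15.1 and 10.97 TPM in UT, 15.7 and 14.3 TPM in Ni-E and 23.7 and 13.7 TPM in Ni-W cells. The conditions overlapped in TPM, whereas on the TMM-scaled count scale of the fit they did not. Its log2 fold change was 0.44 ± 0.21 in Ni-W vs UT (edgeR adjusted p = 0.668, and 0.0545 with the block). IFNAR2, the chain that binds the ligand tightly and holds JAK1, had 17.1 and 14.3 TPM in UT, 20.9 and 18.1 TPM in Ni-E and 25.7 and 17.8 TPM in Ni-W cells. All 4 nickel libraries of IFNAR2 were above the UT libraries, with log2 fold changes of 0.29 ± 0.16 and 0.38 ± 0.16 (edgeR adjusted p = 0.661 and 0.606, and 0.121 and 0.0588 with the block).

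Of the gamma receptor chains, IFNGR1, which binds the ligand, had 63.6 and 55.8 TPM in UT, 67.9 and 75.3 TPM in Ni-E and 104 and 80.4 TPM in Ni-W cells, with no overlap between conditions. Its change in Ni-W vs UT was 0.57 ± 0.18 on the log2 scale, or 1.48-fold (edgeR adjusted p = 0.347, and 0.00848 with the block), just below the 1.5-fold limit and so not called in either fit. IFNGR2, the chain that holds JAK2, was flatter, at 97.1 and 90.4 TPM in UT, 90.6 and 95.6 TPM in Ni-E and 111 and 104 TPM in Ni-W cells. Its log2 fold changes were -0.02 ± 0.19 and 0.15 ± 0.19 against UT (edgeR adjusted p = 0.999 in both, and 0.91 and 0.377 with the block). On the TPM scale the Ni-W libraries of IFNGR2 were above the UT libraries, whereas on the TMM-scaled count scale of the fit they overlapped.

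The lambda receptor chain IFNLR1 was the only gene of the 9 with a negative fold change against UT in both nickel conditions. It had 4.52 and 3.24 TPM in UT, 3.23 and 2.13 TPM in Ni-E and 4.02 and 2.42 TPM in Ni-W cells, from 138 to 226 estimated reads per library. The log2 fold change was -0.55 ± 0.27 in Ni-E vs UT (edgeR adjusted p = 0.552, and 0.0455 with the block, below 1.5-fold) and -0.33 ± 0.27 in Ni-W vs UT (0.984 and 0.239). Within each replicate series IFNLR1 was below UT in Ni-E cells, by -0.46 and -0.64 on the log2 scale. Its partner IL10RB had 27.6 and 25.9 TPM in UT, 22.8 and 21.2 TPM in Ni-E and 29.8 and 27.6 TPM in Ni-W cells, with a log2 fold change of -0.30 ± 0.19 in Ni-E vs UT (edgeR adjusted p = 0.733, and 0.15 with the block).

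The kinases differed in their spread. JAK1, which serves all 3 receptor types, had 67.2, 83.6 and 121 TPM in the replicate 1 libraries of untreated, exposed and washed-out cells, and 30.7, 46.7 and 40.1 TPM in those of replicate 2. The replicate series were further apart than the conditions, and the nickel libraries were above UT within each series. Its log2 fold changes against UT were 0.43 ± 0.51 in Ni-E and 0.63 ± 0.51 in Ni-W cells (edgeR adjusted p = 0.958 and 0.984). With the block they were 0.46 ± 0.12 and 0.58 ± 0.12 (edgeR adjusted p = 0.0289 and 0.0129), both below 1.5-fold, so that JAK1 was not called. Without the Ni-W replicate 1 library, the JAK1 value in Ni-W vs UT turned to -0.11.

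TYK2, the kinase held at IFNAR1 and IL10RB, differed little between conditions. Its level was 56.5 and 48.1 TPM in UT, 58.6 and 48.9 TPM in Ni-E and 59.9 and 49.1 TPM in Ni-W cells, and the conditions overlapped throughout. The log2 fold changes were 0.03 ± 0.15 in Ni-E vs UT and 0.01 ± 0.15 in Ni-W vs UT (edgeR adjusted p = 0.997 and 0.999, and 0.88 and 0.975 with the block), with a sign that differed between settings.

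Over the 9 genes the median log2 fold change was 0.21 in Ni-E vs UT, 0.44 in Ni-W vs UT and 0.21 in Ni-W vs Ni-E, against medians of -0.01, 0.00 and 0.02 over all genes tested. The fold change was positive in 7, 8 and 8 of the 9 genes, beside 48.4%, 50.1% and 53.4% of all genes tested.

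Of the other JAK and STAT genes, 7 of 8 were tested and 0 were called without the block, with 2, 3 and 1 at an unadjusted p below 0.05 in Ni-E vs UT, Ni-W vs UT and Ni-W vs Ni-E (edgeR), where 12.2%, 9.12% and 5.57% of all genes were. STAT5A, a factor downstream of growth hormone and cytokine receptors, fell in the blocked fit, from 3.04 and 2.24 TPM in UT to 0.66 and 0.35 TPM in Ni-E and 1.97 and 0.90 TPM in Ni-W cells (edgeR adjusted p = 0.000138 and 0.0161 against UT). With the block, 1, 2 and 2 of the 7 genes were called higher in Ni-E vs UT, Ni-W vs UT and Ni-W vs Ni-E. Of all genes, 7.64%, 5.79% and 2.72% were. Called lower were 1, 1 and 0 of the 7, beside 5%, 2.78% and 1.8% of all genes, and not all of these genes are named here. STAT5A was among those called higher in Ni-W vs Ni-E (edgeR adjusted p = 0.0189 with the block). STAT4 was called higher in the blocked Ni-W vs UT comparison from only 3 and 1 estimated reads in the UT libraries and 13 and 18 in the Ni-W libraries. JAK2, the second kinase of the gamma receptor, was low, at 0.79 to 2.90 TPM, and was not called in either fit.

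All 13 inhibitors of the pathway were expressed above 1 TPM in every library, and 0 were called without the block (2, 3 and 1 at an unadjusted p below 0.05 by edgeR, beside the same 12.2%, 9.12% and 5.57% of all genes). USP18, an interferon-induced protein that blocks signalling at IFNAR2, had 13.8 and 7.76 TPM in UT, 16.5 and 12.9 TPM in Ni-E and 29.4 and 19.8 TPM in Ni-W cells. It rose in the blocked fit in Ni-W vs UT, by 1.17 ± 0.16 on the log2 scale (edgeR adjusted p = 0.00081, and 0.167 without the block). SOCS2, a suppressor of cytokine signalling known for its action on the growth hormone receptor, fell in the blocked fit, from 13.8 and 10.3 TPM in UT to 5.64 and 4.85 TPM in Ni-E and 8.14 and 5.67 TPM in Ni-W cells (edgeR adjusted p = 0.000599 and 0.00448). SOCS1, which binds and inhibits JAK kinases, had 6.48 and 8.14 TPM in UT and 10.2 and 14.3 TPM in Ni-W cells (edgeR adjusted p = 0.762, and 0.0726 with the block). SOCS3 was level, at 7.83 to 11.5 TPM in the 6 libraries, with a log2 fold change of 0.00 ± 0.20 in Ni-W vs UT. Of the PIAS proteins, which restrain STAT factors, PIAS1 passed the blocked test in Ni-W vs UT and PIAS2 in Ni-E vs UT, by 0.69 ± 0.13 and 0.70 ± 0.12 on the log2 scale (edgeR adjusted p = 0.00634 and 0.00276).

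Transcripts of the ligands were nearly absent. Of 21 interferon genes in the table, 16 had 0 reads in all 6 libraries and 0 passed the expression filter, so that none was tested. IFNL1, a lambda interferon, had 0 and 0 estimated reads in UT, 3 and 3 in Ni-E and 4 and 6 in Ni-W libraries. IFNB1, the beta interferon, had 0 and 0 in UT, 0 and 2 in Ni-E and 0 and 2 in Ni-W libraries. These counts were at most 6 reads in a library and did not pass the expression filter, and no fold change was drawn from them. The 13 alpha interferon genes are near copies of each other and their reads can be split between them.

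Of the genes that ISGF3 is known to activate, 33 of 34 were tested, all with a positive fold change in each comparison, while IFITM2 had at most 3 estimated reads in a library. Of the 33 tested targets, 16 were called higher in Ni-E vs UT and 18 in Ni-W vs UT without the block, beside 1.45% and 0.503% of all genes, and 0 were called lower. Their median log2 fold change was 1.67 in Ni-E vs UT, 2.84 in Ni-W vs UT and 0.99 in Ni-W vs Ni-E, where 0 were called and 28 had an unadjusted p below 0.05 (edgeR). With the block, 30, 33 and 30 were called higher in the 3 comparisons, beside 7.64%, 5.79% and 2.72% of all genes, and IFIT5, OAS1 and PARP14 were not called in Ni-E vs UT in either fit. Examples are IFI44L, IFI44, IFIT1 and IFI27, all interferon-induced genes. IFI44L had 0.16 and 0.07 TPM in UT, 5.87 and 5.63 TPM in Ni-E and 15.7 and 11.1 TPM in Ni-W cells. IFIT1, which binds viral RNA, rose by 3.75 ± 0.28 and 4.99 ± 0.30 on the log2 scale against UT (edgeR adjusted p = 0.00895 and 0.0131). IFI44 rose by 3.55 ± 0.25 and 4.60 ± 0.26, and IFI27 by 5.87 ± 0.46 and 6.29 ± 0.47. The counts of 16 and 18 fell with a library left out: to 0 without either Ni-E library and 3 without UT replicate 2 in Ni-E vs UT, and to 0 without UT replicate 2 or either Ni-E library and 1 without UT replicate 1 in Ni-W vs UT.

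**Figure D3:**
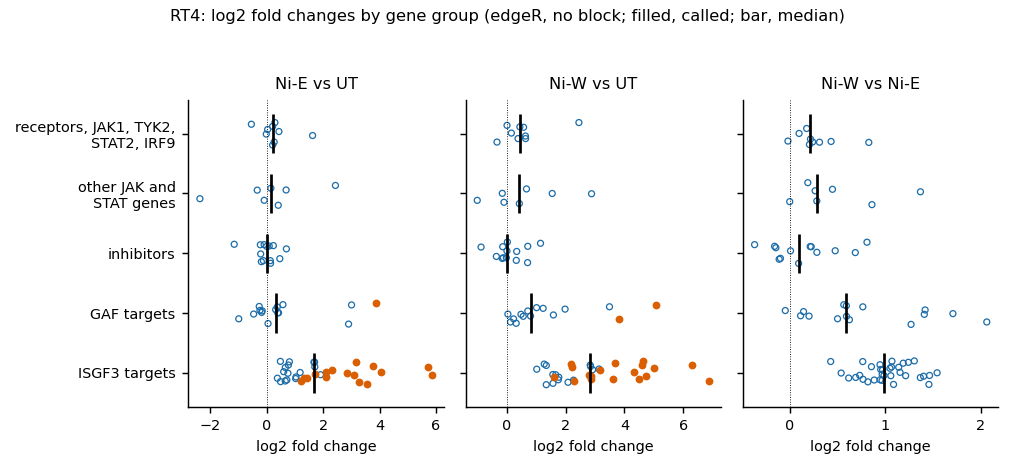
Log2 fold changes without the block for the 9 genes and 4 other lists of the pathway in the 3 RT4 comparisons (each point a gene, filled where called, bars the list medians). The ISGF3 targets lie to the right of 0 in all 3 panels, with medians of 1.67, 2.84 and 0.99, while the inhibitors centre on 0 against UT.

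Of 15 tested targets of interferon gamma, 1 was called higher in Ni-E vs UT and 2 in Ni-W vs UT without the block, beside 1.45% and 0.503% of all genes. With it 3, 7 and 6 were called higher in Ni-E vs UT, Ni-W vs UT and Ni-W vs Ni-E, beside 7.64%, 5.79% and 2.72% of all genes. CXCL10, a chemokine that type I interferon also induces, had 5.72 and 4.52 TPM in UT, 67.3 and 82.9 TPM in Ni-E and 79.5 and 70.6 TPM in Ni-W cells, with log2 fold changes of 3.88 ± 0.26 and 3.83 ± 0.25 (edgeR adjusted p = 0.0085 and 0.0131). IDO1, which degrades tryptophan, was called in Ni-W vs UT, from 1 and 3 estimated reads in UT to 48 and 94 in Ni-W libraries. The median of the list was 0.31, 0.81 and 0.59 on the log2 scale in Ni-E vs UT, Ni-W vs UT and Ni-W vs Ni-E. The counts without the block fell to 0 without UT replicate 2 or either Ni-E library in both comparisons, and in Ni-W vs UT also without UT replicate 1. In bulk RNA, more cells with a response and more RNA per cell cannot be told apart.

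H3K4me3, a histone mark of active promoters, was measured in the other line, so the values that follow are set beside the RT4 values without pairing. Depths were 28385725, 37493949 and 29933551 reads in untreated, exposed and washed-out cells. The 26237 promoters, each 2 kb on both sides of the start site, held 37.6%, 36.0% and 22.9% of these reads. With 1 library per condition, the condition and the library cannot be told apart, and the part of this lower promoter share in the Ni-W values was not tested. Intervals are 95% Wilson intervals of the reads behind each RPKM and cover counting error only.

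All 9 promoters were marked above the library median in each condition. In UT cells the type I chains were highest, with 10.5 RPKM (9.89 to 11.1) at IFNAR1 and 10.0 RPKM (9.48 to 10.7) at IFNAR2, above 93.1% and 92.0% of promoters. IFNGR2 had 9.13 RPKM (8.59 to 9.71), JAK1 8.65 (8.12 to 9.21), STAT2 6.76 (6.30 to 7.26), IFNGR1 6.39 (5.95 to 6.88) and TYK2 5.68 (5.26 to 6.14). IFNLR1 had 3.16 RPKM (2.85 to 3.51), and IRF9 was lowest at 2.55 RPKM (2.27 to 2.86), above 53.7% of promoters. The intervals of neighbours in this order overlapped except between JAK1 and STAT2 and between TYK2 and IFNLR1, while those of IFNLR1 and IRF9 met closely, at 2.85 and 2.86. In RT4 cells the order of the RNA was different, with IFNGR2 first and the type I chains near the end.

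**Figure D4:**
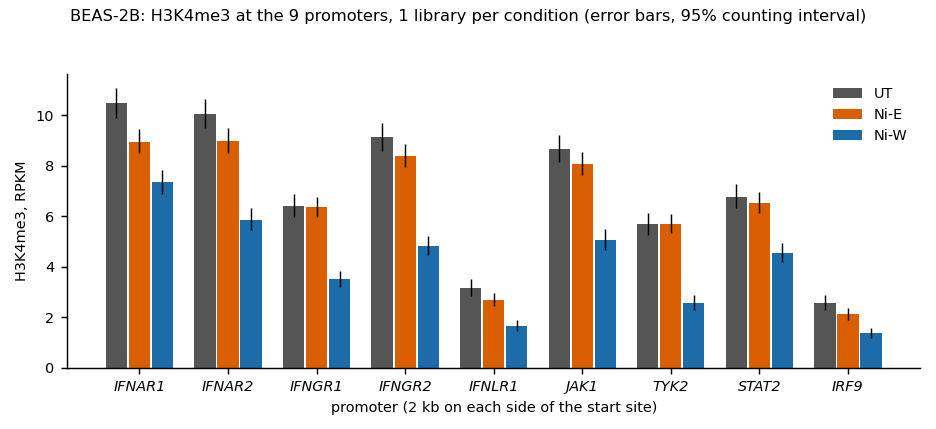
H3K4me3 in RPKM at the promoters of the 9 genes in the BEAS-2B UT, Ni-E and Ni-W libraries, with 95% counting intervals. Each Ni-W bar is the lowest of its gene, for example 2.56 RPKM at TYK2 against 5.68 in UT and 5.70 in Ni-E cells.

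In Ni-E cells 8 of the 9 promoters had less H3K4me3 in RPKM than in UT cells, and TYK2 had slightly more. The levels were 8.95 RPKM at IFNAR1, 8.98 at IFNAR2, 6.34 at IFNGR1, 8.38 at IFNGR2, 2.68 at IFNLR1, 8.06 at JAK1, 5.70 at TYK2, 6.51 at STAT2 and 2.11 at IRF9. The ratio to UT ran from 0.828 at IRF9 to 1.004 at TYK2, beside a median of 0.952 over promoters with at least 1 RPKM in any library. The UT and Ni-E counting intervals overlapped except at IFNAR1 and IFNAR2. The chromatin dynamic score, the square root of the RPKM over the library median in treated cells minus that in control cells, ran from -0.04 at IFNAR1 to 0.12 at TYK2. Its median over the 9 promoters was 0.045, against 0.074 over the 14127 promoters with at least 1 RPKM in any library. At IFNGR1 and TYK2, both 0.12, the score was above 0 by more than counting error. None of the 9 promoters was past 1.5-fold in median-scaled RPKM, beside 1.01% of promoters higher and 0.595% lower.

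In Ni-W cells all 9 promoters had less H3K4me3 in RPKM than in UT cells, with 7.34 RPKM at IFNAR1, 5.86 at IFNAR2, 3.49 at IFNGR1, 4.82 at IFNGR2, 1.65 at IFNLR1, 5.06 at JAK1, 2.56 at TYK2, 4.55 at STAT2 and 1.35 at IRF9. The ratio to UT ran from 0.450 at TYK2 to 0.702 at IFNAR1, around the median of 0.572 over the 14127 marked promoters. After scaling by the library median the score was below 0 at all 9 promoters, with a median of -0.222 against -0.197 over the marked promoters. IFNAR1 and STAT2 had scores within counting error of 0, of -0.02 ± 0.06 (counting SE) and -0.06 ± 0.06, and lay above 75.5% and 70.7% of the marked promoters. TYK2 had the lowest score, -0.39, above 16.4% of the marked promoters. IRF9 had a score of -0.17, above 53.9% of them, so that its promoter in BEAS-2B was near the middle of all marked promoters.

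By the 1.5-fold rule, 1 of the 9 promoters was lower in Ni-W vs UT, TYK2 with a median-scaled ratio of 0.630 (0.548 to 0.723), and 0 were higher, beside 18.4% of marked promoters lower and 4.39% higher. Against Ni-E cells TYK2 was again the only promoter past the fold, at 0.556 (0.486 to 0.634), beside 30.3% lower and 4.07% higher. These counts, 1 of 9, were no higher than the share over all marked promoters. The direction depended on the scaling. With quantile normalization of the 3 libraries, 7 of the 9 promoters were below 0 and 2 above in Ni-W vs UT, and 5 below and 4 above in Ni-W vs Ni-E.

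**Figure D5:**
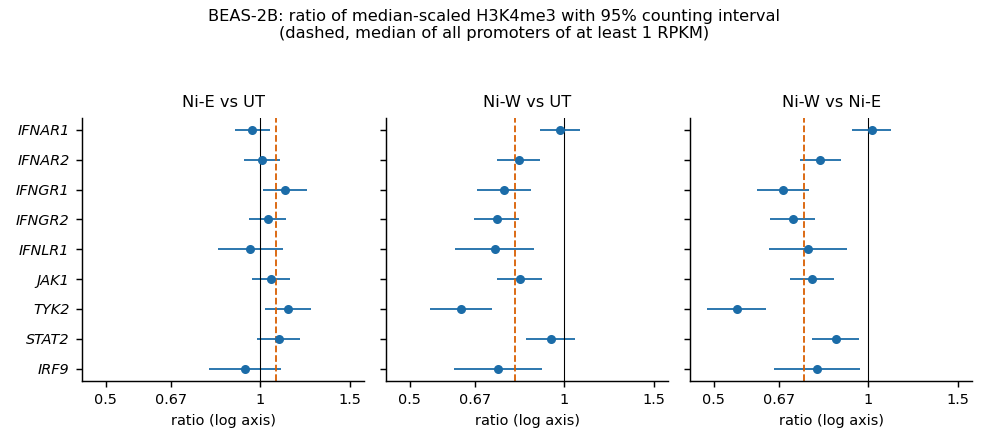
Ratios of median-scaled H3K4me3 at the 9 promoters in the 3 BEAS-2B comparisons (log axis) with 95% counting intervals; the dashed line is the median of all promoters with at least 1 RPKM. Most genes lie close to the dashed line, IFNAR1 and STAT2 lie above it in the comparisons with Ni-W cells, and TYK2 lies below it, at 0.630 and 0.556.

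Of the partners of these genes, JAK2 and IL10RB both had negative scores in Ni-W vs UT. JAK2 had 7.94, 7.05 and 3.03 RPKM in untreated, exposed and washed-out cells and a score of -0.60 ± 0.06 in Ni-W vs UT, above only 1.81% of the marked promoters, and IL10RB had 6.83, 6.26 and 3.25 RPKM and a score of -0.38 ± 0.06. Among the inhibitors, USP18 had 3.70, 3.38 and 2.84 RPKM, a Ni-W vs UT ratio of 0.768 (0.663 to 0.888) before median scaling and 1.08 (0.930 to 1.24) after it, while SOCS1 was lower past 1.5-fold, with 5.11 RPKM in UT and 2.16 RPKM in Ni-W cells, a ratio of 0.591 (0.509 to 0.686) after median scaling. The 21 ligand promoters were below 1 RPKM in all 3 libraries.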

How the data were processed

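Gene-level RNA-Seq tables of RT4 cells (UT, Ni-E and Ni-W, 2 libraries each) and promoter tables of H3K4me3 in BEAS-2B cells (1 library each) were used. The RNA-Seq tables deposited by the authors hold estimated counts from RSEM with TPM and FPKM values, of which the FPKM values were not used. Alignment to hg19 with STAR is described in the methods, while the labels list GRCh38, and whether the estimated counts came from that alignment is not stated in the sources used here. The ChIP-Seq reads were aligned with BWA on hg38 and reduced to 1 of each redundant read by the authors, whose deposited values are RPKM per promoter, 2 kb on each side of the start. The labels say that ChIP used 2 biological replicates, and whether a library pools them is not stated. ChIP inputs and BEAS-2B RNA-Seq were not analysed here. The deposited RPKM values were whole multiples of the value of 1 read in each library (100.0% of them within rounding of 0.0005 plus 0.1 of a read), which gave the reads and depth behind each value.

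Estimated counts were rounded and fitted with edgeR 4.0.16 (R 4.3.3, TMM, its expression filter, quasi-likelihood test). The 3 groups shared 1 model with no block term, which leaves 3 residual degrees of freedom, or 2 with the replicate block. The titles give 1 library per condition a duplicate suffix, taken as the replicate number. The difference between the libraries correlated across 11141 genes with r = 0.845 (UT and Ni-E), 0.911 (UT and Ni-W) and 0.838 (Ni-E and Ni-W), so the numbers were taken as pairing the libraries, and the blocked value is printed where it changes a call. limma 3.58.1 on log2(TPM + 1) and DESeq2 1.42.0 were alternatives, with other size factors, filters and pseudocounts, only the 2 groups compared, and each library left out. On simulated counts for Ni-E vs UT over 14502 genes, 23 of 68 changes of 2-fold, 62 of 66 of 4-fold and 66 of 66 of 8-fold were recovered, with 8 wrong calls. The simulated counts held no difference between replicate series, and changes were placed only in genes above a minimum count. Only the fit without the block was run on them, so the blocked fit was not checked in this way.

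The 9 genes, the gene lists and the motifs were chosen with earlier results of these data known. Named genes were the 9 genes, the called members of lists with up to 13 genes, up to 4 called members of longer lists by adjusted p, a few fixed partners (among them JAK2, IL10RB, SOCS1, SOCS3, USP18), and the 5 genes most correlated with STAT2 and with IRF9 among those with a mean of at least 5 CPM. Of the 4 HIF and nickel response genes called in Ni-E vs UT, only ADM is named, which had the largest log2 fold change of that list. Genes called only in the blocked fit, ADM, and the ISGF3 targets not called or not tested were named after their values were seen. Some genes of the lists enter the counts and sums but are not reported here by name. ChIP-Seq values had no test. Figures were drawn with matplotlib 3.10.9 in Python 3.11.15.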

Additional observations from a re-analysis of the deposited data

How the results depend on the processing

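In the main setting, edgeR with its expression filter and no block, the number of the 9 genes called was 0 in each RT4 comparison. In Ni-E vs UT it was 1 (IRF9) with DESeq2, with no filter on low counts, with the replicate block and with limma on log2(TPM + 1) or log2(TPM + 0.1), and in Ni-W vs UT it was 1 (IRF9) with the same settings and with limma without a filter, except that the replicate block gave 2 (IRF9 and STAT2). In Ni-W vs Ni-E the replicate block gave 1 (IRF9). The replicate block changed no other call among the 9 genes. It moved the calls over all genes from 211 higher and 103 lower to 1108 and 725 in Ni-E vs UT, from 73 and 14 to 840 and 403 in Ni-W vs UT, and from 0 and 0 to 394 and 261 in Ni-W vs Ni-E. DESeq2 gave 492 and 288, 371 and 112, and 102 and 60, and the fit of only the 2 groups compared gave 0 in Ni-W vs UT. With no filter there were 299 and 150, 162 and 31, and 9 and 5, and with at least 10 counts in every library 139 and 70, 46 and 8, and 0. limma on log2(TPM + 1) gave 107 and 63, 62 and 17, and 0.

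With a library left out, 0 of the 9 genes were called in all 3 comparisons, and where an arm had 1 library, that library was assumed to vary like the others. IRF9 stayed between 1.3 and 2.05 in Ni-E vs UT, 2.11 and 2.88 in Ni-W vs UT, and 0.482 and 1.12 in Ni-W vs Ni-E. Signs turned for values near 0: IFNGR2 ranged from -0.145 to 0.094 in Ni-E vs UT and -0.00325 to 0.303 in Ni-W vs UT, and TYK2 from -0.0227 to 0.0768, -0.0447 to 0.0629 and -0.0736 to 0.0405 in Ni-E vs UT, Ni-W vs UT and Ni-W vs Ni-E. JAK1 ranged from -0.107 to 1.14 in Ni-W vs UT and -0.525 to 0.693 in Ni-W vs Ni-E. TYK2 in Ni-W vs UT was also -4.28e-05 with DESeq2 and -0.00013 with RLE size factors, and in Ni-W vs Ni-E 0.0178 with limma on log2(TPM + 1), with or without a filter, and 0.0181 on log2(TPM + 0.1).

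The median score of the 9 promoters (0.045, -0.222 and -0.257 in Ni-E vs UT, Ni-W vs UT and Ni-W vs Ni-E) became -0.127, -0.660 and -0.577 without median scaling, -0.0436, -0.0529 and -0.0555 with quantile normalization, -0.00580, -0.394 and -0.370 as a log2 ratio of median-scaled (RPKM + 1), and -0.0282, -0.0254 and 0.0211 with medians over promoters of at least 1 RPKM. IFNGR1 in Ni-E vs UT was -0.0105 without median scaling. In Ni-W vs Ni-E quantile normalization gave 0.0541 at IFNAR2, 0.0200 at JAK1 and 0.148 at STAT2. Medians over promoters of at least 1 RPKM gave 0.0533 at IFNAR2, 0.0101 at IFNLR1, 0.0281 at JAK1, 0.0842 at STAT2 and 0.0211 at IRF9, and in Ni-W vs UT 0.00726 at IFNAR2 and 0.00931 at JAK1. The cause of these changes was not tested.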

Other observations

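Genes named here were chosen after their values were seen. STAT6, which carries interleukin-4 signals, was the most abundant STAT gene in untreated RT4 cells, at 156 and 136 TPM in UT, 127 and 105 TPM in Ni-E and 149 and 123 TPM in Ni-W cells. Its log2 fold change in Ni-E vs UT was -0.34 ± 0.15 (edgeR adjusted p = 0.476, and 0.0332 with the replicate block, below 1.5-fold). STAT3, which carries interleukin-6 signals, split by replicate like JAK1, at 74.7, 77.0 and 110 TPM in the replicate 1 libraries of untreated, exposed and washed-out cells and 38.3, 46.8 and 49.8 TPM in those of replicate 2. STAT5B was level, with log2 fold changes of -0.09 ± 0.18 and -0.10 ± 0.18 against UT, beside the lower STAT5A. At the BEAS-2B promoter of STAT5A, H3K4me3 was 3.90, 2.68 and 1.84 RPKM in untreated, exposed and washed-out cells, and its Ni-E vs UT score of -0.19 ± 0.05 (counting SE) was above only 1.25% of the marked promoters.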
